A study of Mus musculus with 6 samples.

Results

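Chemokine receptors and integrins are the receptors with which a thymocyte finds its way and holds on. They were read here in DN3 thymocytes, the CD25 high, CD44 low, CD4- and CD8- stage at which T cell precursors of the mouse rearrange the T cell receptor beta gene. The genes were chosen by name and by a minimum of counts. The names were every gene symbol for a chemokine receptor of the Ccr, Cxcr, Cx3cr and Xcr series or for an integrin alpha or beta chain. The minimum was 20 read counts over the 6 libraries. Of the 24015 gene symbols in the deposited count files, 46 had such a name and 38 reached 20 counts: 15 chemokine receptors, 16 integrin alpha chains and 7 integrin beta chains. The lowest totals inside the limit were 24 counts for Itga11 and 28 for Itga7, and the highest outside it were 12 counts for Itga2 and 10 each for Cxcr1, Ccr1 and Itgb6. The other names outside it were Ccr3, Itga8, Itgb2l and Itgbl1.

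RNA was sequenced from sorted thymocytes of 3 genotypes, with 2 libraries each. The p45-deficient cells (p45-/-) lack the long protein forms of Tcf1, the DNA-binding factor that Tcf7 encodes, and keep its short forms. In the Tcf1-deficient cells (Lck-cre+ Tcf1 fl/fl) the Cre recombinase, driven by the Lck promoter in T-lineage cells, ablates all Tcf1 proteins according to the labels, and the controls are wild type. No age, sex or strain is given, nor is it stated whether a genotype's 2 libraries are from separate mice. The p-values therefore weigh a difference between genotypes against how far these libraries spread, and that spread may be technical.

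As background, chemokine receptors are G protein-coupled receptors that steer cells along gradients of chemokines. Ccr9, Ccr7 and Cxcr4, the receptors of CCL25, of CCL19 and CCL21, and of CXCL12, guide precursors into the thymus and within it. An integrin is an alpha chain paired with a beta chain; inside the cell, talin and kindlin bind the beta chain and switch the pair to its binding form, and outside it binds matrix proteins or partner molecules on other cells. In the thymus the ligands include VCAM-1, fibronectin and laminins of the cortex and E-cadherin of the epithelium.

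Library totals ran from 19640524 to 28107031 counts, at which 3 counts correspond to 0.110 to 0.145 CPM, the count of a gene scaled to the size of its library and the unit of all levels below. Such floors cover counting error only. Tcf7, the gene whose products were removed, stood at 2340 and 2414 CPM in the p45-deficient, 979 and 976 CPM in the Tcf1-deficient and 2088 and 1810 CPM in the control libraries. Both Tcf1-deficient libraries lay below both controls, and edgeR gave the difference an adjusted p of 0.0762. Tcf7 reads were thus still counted in the Tcf1-deficient libraries, and the gene's level does not show that every Tcf1 protein was absent. Since the counts are per gene, long and short forms are counted together and Tcf7 does not check the p45-deficient label. The genes that define DN3 cells were present in every library. Their 18 markers summed to 13505 and 12724 CPM in the p45-deficient, 10190 and 13057 CPM in the Tcf1-deficient and 13505 and 11835 CPM in the control libraries, with none of them at 0.

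Tcf1-deficient replicate 1 stood apart from the other 5 libraries in these receptors. Between the 2 Tcf1-deficient libraries, 20 of the 36 genes that passed the filter on low counts (55.6%) were at least 2-fold higher in replicate 1 (on CPM + 0.1), against 8.71% of all 12939 genes tested, and 0 were at least 2-fold higher in replicate 2. The 20 include 11 of the 15 chemokine receptors. The same count was 4 of 36 (11.1%, against 3.32% of all genes) in the p45-deficient and 2 of 36 (5.56%, against 2.53%) in the control pair. Genes of mature and regulatory T cells were high in that library too: the 15 markers of mature T cells, of which Ccr7 is 1, summed to 1630 CPM in Tcf1-deficient replicate 1 and 1050 CPM in replicate 2, against 577 and 881 CPM in the controls. Foxp3, the regulatory T cell factor, had 34.3 and 2.25 CPM in the Tcf1-deficient and 1.55 and 1.91 CPM in the control libraries. S1pr1, the receptor with which mature thymocytes leave the thymus, had 94.7 and 7.28 CPM in the Tcf1-deficient and 3.48 and 8.28 CPM in the control libraries. Most natural killer and innate lymphoid markers were high there as well. Of 15 tested, 11 were higher in Tcf1-deficient replicate 1 than in each of the other 5 libraries, and 0 were lower. Without the granzyme gene Gzma, that list summed to 478 and 262 CPM in the Tcf1-deficient libraries. The same sum was 221 and 220 CPM in the p45-deficient and 191 and 208 CPM in the control libraries. Of the 18 DN3 markers, 7 were lower in Tcf1-deficient replicate 1 than in each of the other 5 libraries (Il2ra, Ptcra, Rag1, Rag2, Notch1, Thy1 and Tcf12) and 1, Cd5, was higher, while the other 10 lay within the range of the others. Rag1 had 458 and 801 CPM in the Tcf1-deficient and 1255 and 951 CPM in the control libraries, and Cd5 had 241 and 51.4 CPM in the Tcf1-deficient and 39.1 and 62.1 CPM in the control libraries. What part these markers have in the receptor levels was not tested. Results for these receptors that rest on Tcf1-deficient libraries are given below with and without replicate 1.

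**Figure D1:**
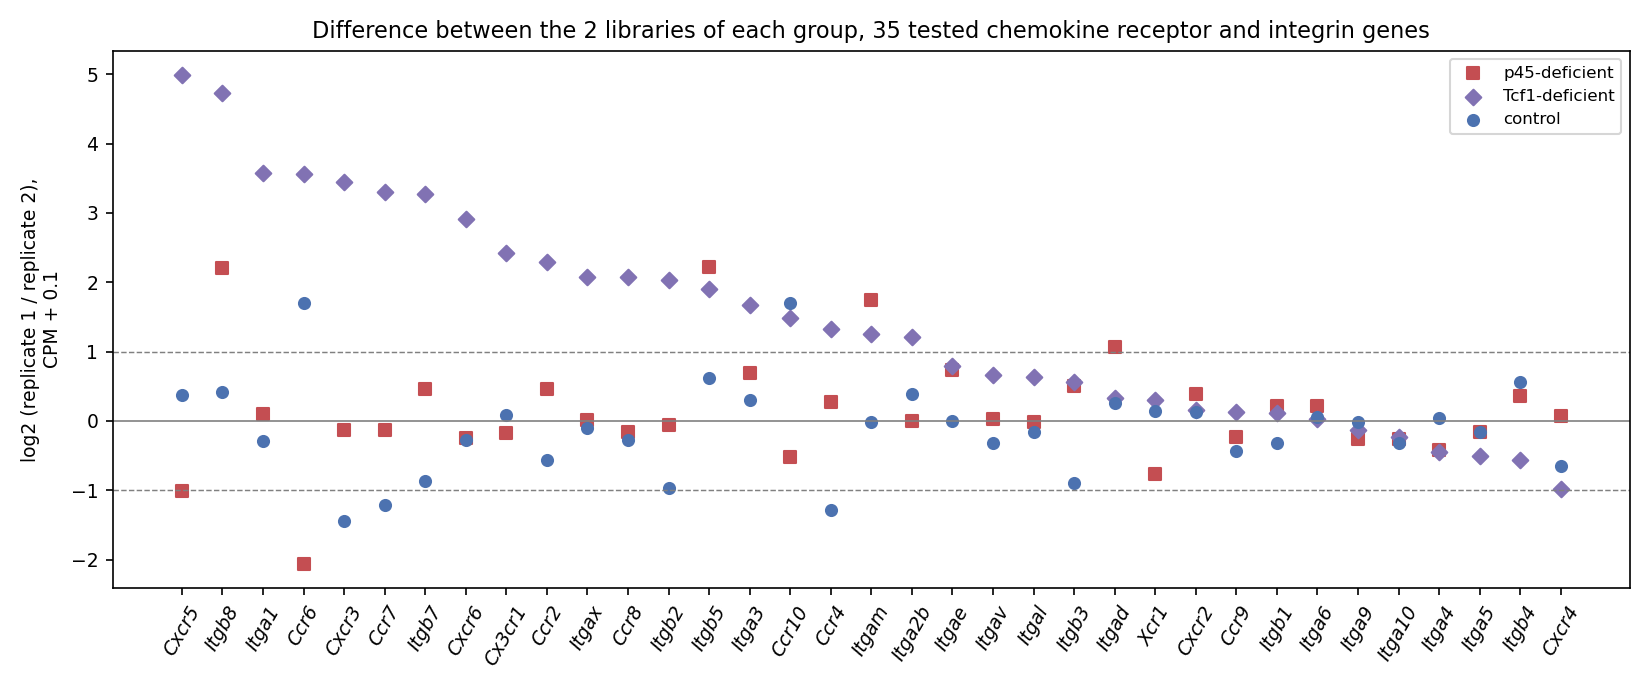
Difference between the 2 libraries of each genotype (vertical axis, log2 of replicate 1 over replicate 2 on CPM + 0.1) for 35 tested chemokine receptor and integrin genes, ordered by the Tcf1-deficient pair; dashed lines mark a 2-fold difference. 19 of the 35 Tcf1-deficient points lie at or above the upper line, against 4 p45-deficient and 2 control points.

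**Figure D2:**
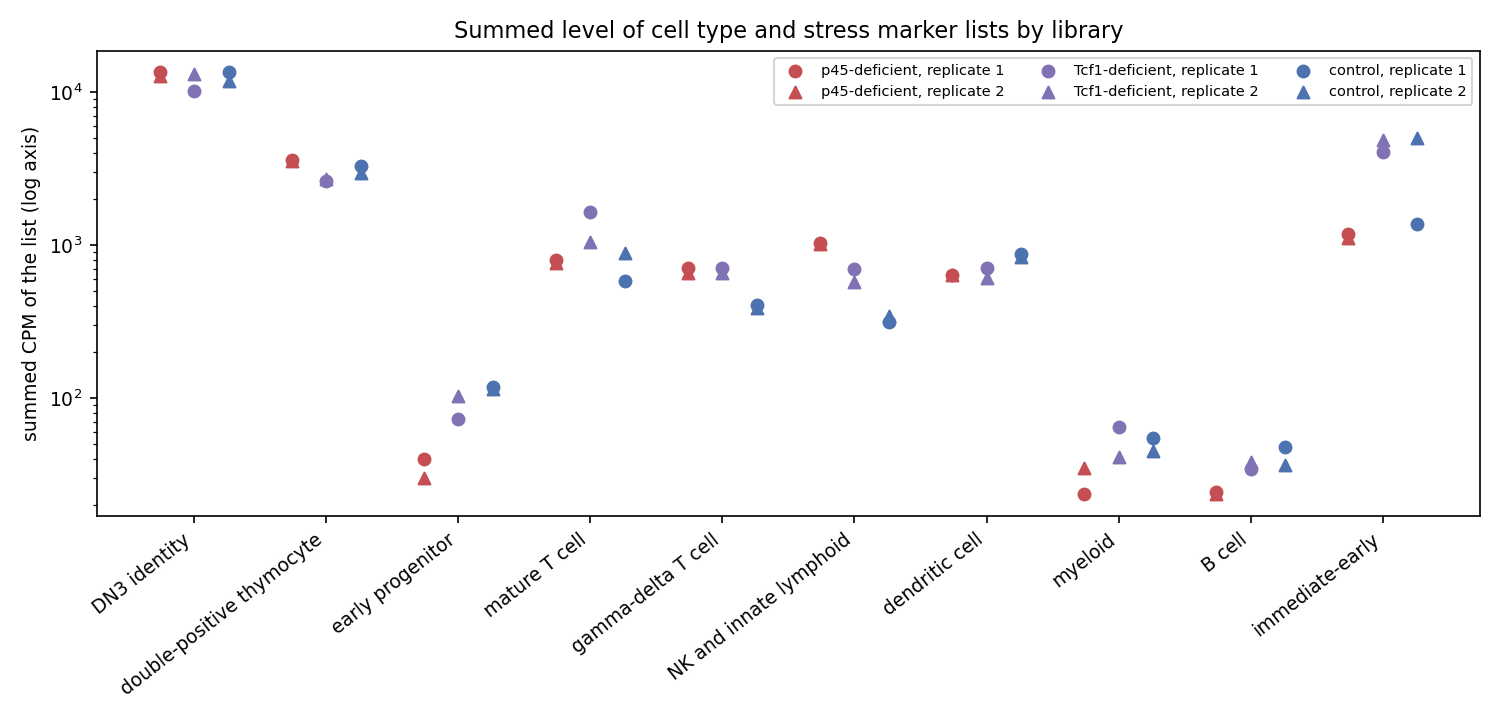
Summed CPM (vertical axis, log scale) of 10 lists of cell type and stress markers in each of the 6 libraries; colours are genotypes, circles replicate 1 and triangles replicate 2. The mature T cell sum is highest in Tcf1-deficient replicate 1 (1630 CPM), and the immediate-early sum splits the 2 controls (1363 and 4959 CPM).

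The levels of these receptors spanned a wide range in DN3 cells. Of the 38, 22 averaged at least 5 CPM in some genotype or passed a test. Compared per kilobase of exon, so that genes of different length can be set side by side, Cxcr4 led all genotypes, with a mean level of 170 CPM per kb in p45-deficient, 130 in Tcf1-deficient and 170 in control cells. In controls it was followed by Itgal (68.3), Itga4 (58.4), Itgb1 (57.9), Ccr9 (29.2), Itgb2 (28.2) and Itgb4 (24.6 CPM per kb). These are the chains of LFA-1 (Itgal with Itgb2) and of the VCAM-1 and fibronectin receptor VLA-4 (Itga4 with Itgb1). Itga4 and Itgb1 stood closer together in controls than the spread between their libraries. In p45-deficient cells the order after Cxcr4 was Itgb1 (65.0), Itgal (61.1), Itgb2 (49.7), Itga4 (35.4), Itga6 (35.0) and Ccr9 (21.6 CPM per kb), with Itgb4 at 7.58 CPM per kb. Itga6 stood at 15.2 CPM per kb in controls, so it ranked higher and Itgb4 lower in p45-deficient than in control cells.

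**Figure D3:**
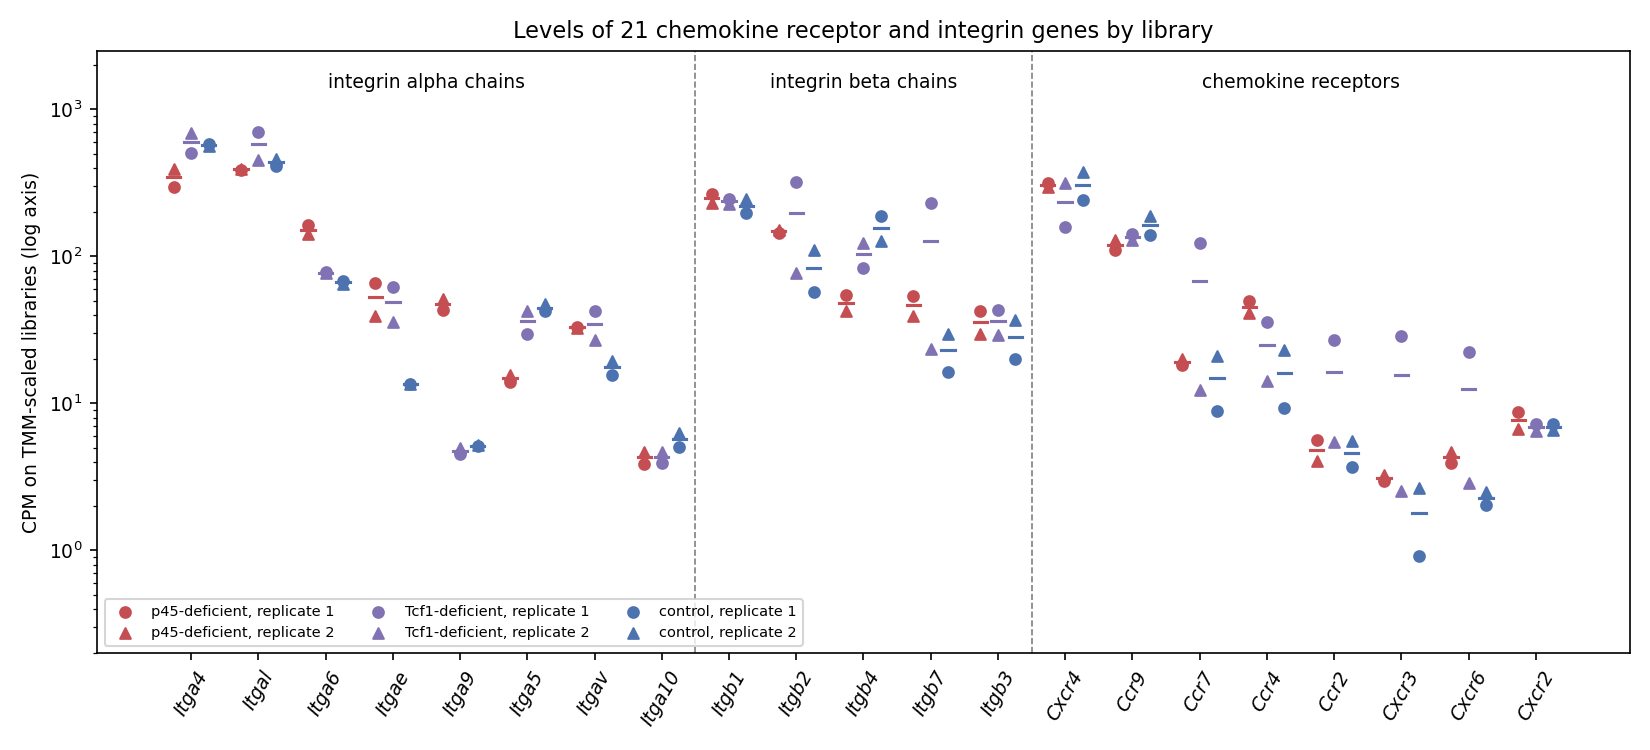
Level of 21 chemokine receptor and integrin genes (vertical axis, CPM on a log scale) in every library, p45-deficient left of Tcf1-deficient left of control; circles are replicate 1, triangles replicate 2, and bars the mean of the 2 libraries. Itga9 lies near 50 CPM in both p45-deficient libraries and near 5 CPM in the other 4; Ccr7, Ccr2, Cxcr3 and Cxcr6 lie far higher in Tcf1-deficient replicate 1 than in replicate 2.

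The question of the first comparison is what the loss of the long Tcf1 isoforms does to these receptors. In p45-deficient cells 6 integrin alpha chain genes and 1 beta chain gene changed, and no chemokine receptor gene passed the test of edgeR. Itga9, Itga6, Itgae and Itgav rose, by 9.17-, 2.29-, 3.89- and 1.87-fold, and Itga5, Itgb4 and Itga4 fell, by 3.01-, 3.24- and 1.65-fold. Of the 36 genes tested, 7 passed an adjusted p of 0.05 (19.4%), close to the 16.0% of all genes tested, so the share is no result about these receptors. By direction, 4 of 36 were higher, against 8.47% of all genes, and 3 lower, against 7.55%. The 7 were 6 of the 14 tested alpha chains, 1 of 7 beta chains and 0 of 15 chemokine receptors. DESeq2 called 9 of the 36, the same 7 with Ccr4 (higher) and Ccr9 (lower), against 23.7% of all genes. The median log2 fold change by edgeR was 0.19 over the 36 and 0.05 over all genes.

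Itga9 encodes an alpha chain that pairs with Itgb1 and binds tenascin-C, osteopontin and VCAM-1. Its level was 43.2 and 51.5 CPM in the p45-deficient, 4.53 and 4.95 CPM in the Tcf1-deficient and 5.12 and 5.19 CPM in the control libraries. The p45-deficient libraries stood far above all 4 others, which lay within 1 CPM of each other. The log2 fold change against control was 3.20 (SE 0.19, adjusted p = 5.93e-04). This and every adjusted p below are from the quasi-likelihood test of edgeR with Benjamini-Hochberg adjustment, unless DESeq2 is named.

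Itga6, the alpha chain of the laminin receptors, had 164 and 141 CPM in the p45-deficient, 78.4 and 76.7 CPM in the Tcf1-deficient and 67.7 and 65.3 CPM in the control libraries. Again both p45-deficient libraries lay above the other 4 (log2 fold change against control 1.20, SE 0.12, adjusted p = 0.00283). Itga6 pairs with Itgb1 or with Itgb4. Itgb4, which has no other partner than Itga6, fell to 54.3 and 42.4 CPM in p45-deficient cells, against 187 and 127 CPM in control cells, with Tcf1-deficient cells at 83.2 and 123 CPM (log2 fold change against control −1.70, SE 0.26, adjusted p = 0.0103). Itgb1, the shared partner of Itga4, Itga5, Itga6, Itga9 and Itgav, had 267 and 229 CPM in the p45-deficient, 247 and 227 CPM in the Tcf1-deficient and 197 and 245 CPM in the control libraries. Its genotypes overlapped, and its log2 fold change against control was 0.17 (SE 0.15, adjusted p = 0.470).

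Itgae, known as CD103, pairs with Itgb7 to bind E-cadherin on epithelium. It reached 65.8 and 39.4 CPM in p45-deficient and 62.0 and 35.7 CPM in Tcf1-deficient cells, against 13.5 and 13.5 CPM in the controls. All 4 mutant libraries lay above both controls, and those of 1 genotype differed by 1.67- and 1.74-fold. The log2 fold change of p45-deficient against control cells was 1.96 (SE 0.33, adjusted p = 0.0137). Its partner Itgb7 had 53.7 and 39.1 CPM in the p45-deficient, 230 and 23.6 CPM in the Tcf1-deficient and 16.3 and 29.7 CPM in the control libraries. The p45-deficient values of Itgb7 lay above both controls, but the difference did not pass (log2 fold change 1.01, SE 1.06, adjusted p = 0.559). That SE rests on all 6 libraries, and so also on the Tcf1-deficient pair, which lay far apart. On the p45-deficient and control libraries only, Itgb7 did not pass either, which does not show that it was unchanged.

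Itgav, the alpha chain of the vitronectin receptors, whose pairs with Itgb6 and Itgb8 release active TGF-beta, stood at 33.2 and 32.6 CPM in p45-deficient and 42.7 and 27.0 CPM in Tcf1-deficient cells, against 15.7 and 19.5 CPM in the controls. Here too the 4 mutant libraries were all above both controls (log2 fold change of p45-deficient against control cells 0.90, SE 0.24, adjusted p = 0.0415). Of its beta partners, Itgb3 had 42.2 and 29.6 CPM in the p45-deficient, 43.3 and 29.3 CPM in the Tcf1-deficient and 19.9 and 37.1 CPM in the control libraries, which overlap. Itgb5 and Itgb8 stayed at or below 2.55 CPM in every library, and Itgb6 had 10 counts in all.

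Itga5 and Itga4, alpha chains of fibronectin receptors, fell, whereas Itgav, some of whose pairs bind fibronectin too, rose as given above. Itga5, which with Itgb1 forms the main fibronectin receptor, fell to 14.0 and 15.7 CPM in p45-deficient cells, against 42.3 and 47.1 CPM in control cells, with Tcf1-deficient cells at 29.8 and 42.4 CPM. The p45-deficient libraries were below all 4 others (log2 fold change against control −1.59, SE 0.20, adjusted p = 0.00495). Itga4, which binds VCAM-1 and fibronectin with Itgb1 and MAdCAM-1 with Itgb7, fell to 296 and 395 CPM in p45-deficient cells, against 579 and 561 CPM in control cells, with 503 and 687 CPM in Tcf1-deficient cells. This was the smallest of the changes that passed (log2 fold change −0.72, SE 0.19, adjusted p = 0.0432).

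Among the abundant alpha chains that did not pass, Itgal, which with Itgb2 forms the ICAM receptor LFA-1, had 388 and 392 CPM in the p45-deficient, 703 and 451 CPM in the Tcf1-deficient and 412 and 459 CPM in the control libraries (log2 fold change of p45-deficient against control cells −0.16, SE 0.20, adjusted p = 0.616). Itgb2 had 145 and 151 CPM in the p45-deficient, 319 and 77.6 CPM in the Tcf1-deficient and 57.0 and 111 CPM in the control libraries (0.81, SE 0.72, adjusted p = 0.489). Its Tcf1-deficient libraries differed by 4.11-fold, with the higher above all others and the lower between the controls. Their spread enters the SE, so Itgb2 is not shown to be unchanged in p45-deficient cells. The collagen receptor chain Itga10 had between 3.90 and 6.34 CPM in all 6 libraries.

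By edgeR no chemokine receptor passed in p45-deficient against control cells. At an unadjusted p under 0.05 there were 2 of 15, Ccr4 and Ccr9, against 33.8% of all genes tested. The spread was estimated over all 6 libraries, and 11 of the 15 were at least 2-fold higher in Tcf1-deficient replicate 1 than in replicate 2. A receptor that did not pass is thus not shown to be unchanged. Ccr9, which binds the CCL25 of thymic epithelium, had 111 and 130 CPM in the p45-deficient, 142 and 130 CPM in the Tcf1-deficient and 139 and 188 CPM in the control libraries (log2 fold change of p45-deficient against control cells −0.44, SE 0.17, adjusted p = 0.117). Ccr9 passed by edgeR without Tcf1-deficient replicate 1 in the shared estimate of the spread (log2 fold change −0.49, adjusted p = 0.0484), by edgeR on these 2 genotypes only (adjusted p = 0.0474) and by DESeq2 (adjusted p = 0.0486). Ccr4, the receptor of CCL17 and CCL22, had 49.4 and 41.0 CPM in the p45-deficient, 35.6 and 14.1 CPM in the Tcf1-deficient and 9.38 and 22.9 CPM in the control libraries. Both p45-deficient values were above both controls, which themselves differed by more than 2-fold (log2 fold change 1.48, SE 0.57, adjusted p = 0.141). DESeq2 called Ccr4 higher (log2 fold change 1.44, adjusted p = 0.0172). Cxcr4, which cooperates with the pre-T cell receptor at this stage, had 314 and 298 CPM in the p45-deficient, 158 and 313 CPM in the Tcf1-deficient and 240 and 375 CPM in the control libraries, with the p45-deficient pair between the controls. Ccr7 had 18.2 and 20 CPM in the p45-deficient, 123 and 12.4 CPM in the Tcf1-deficient and 8.94 and 20.9 CPM in the control libraries. Cxcr6, the receptor of CXCL16, had 3.93 and 4.69 CPM in the p45-deficient and 2.03 and 2.48 CPM in the control libraries; it passed without Tcf1-deficient replicate 2 (log2 fold change 0.93, adjusted p = 0.0327).

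Libraries without overlap were common in this comparison. In 12 of 36 genes both p45-deficient libraries lay above both controls, against 37.9% of all genes tested, and in 12 both lay below, against 31.3%. Several marker lists moved between the same groups. Of the natural killer and innate lymphoid markers, 1 of 15 tested was called higher (Gzma, 6.67%, against 8.47% of all genes), and Klra1 was at 0 in all libraries. The 20 markers of this list summed to 1028 and 1019 CPM in p45-deficient and 314 and 344 CPM in control cells. Gzma, a granzyme gene, carried that difference, with 806 and 799 CPM in p45-deficient and 123 and 136 CPM in control cells, and without it the list summed to 221 and 220 CPM in p45-deficient and 191 and 208 CPM in control cells. The 9 gamma-delta T cell markers in the files summed to 702 and 652 CPM in p45-deficient and 406 and 389 CPM in control cells. Of 7 tested, 3 were called higher, against 8.47% of all genes, and 1 lower, against 7.55%. Cd163l1 was the largest part of the rise, with 383 and 249 CPM in p45-deficient and 68.4 and 53.0 CPM in control cells (adjusted p = 0.00257), while 5830411N06Rik fell to 67.2 and 92.7 CPM in p45-deficient cells, against 170 and 198 CPM in control cells (adjusted p = 0.00737). Sox13 had 60.6 and 66.2 CPM in p45-deficient and 77.1 and 66.0 CPM in control cells. The 15 early progenitor markers summed to 40.0 and 30.1 CPM in p45-deficient and 117 and 115 CPM in control cells, with 6 of 14 tested called lower (42.9%, against 7.55% of all genes) and 1, Lyl1, higher (log2 fold change 1.74, adjusted p = 0.0345). The part of these cell types in the integrin values was not tested, and in such bulk samples fewer cells of a type and less RNA per cell cannot be told apart.

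The calls did not all rest on the same libraries. Itga9 and Itga6 passed whichever library was left out. Without control replicate 1, Itgae (adjusted p = 0.104), Itgav (0.223), Itgb4 (0.0617) and Itga4 (0.185) no longer passed. Without control replicate 2 the same held for Itgae (0.0840), Itgav (0.107) and Itga4 (0.135). Without p45-deficient replicate 1, the adjusted p was 0.0730 for Itgae, 0.199 for Itgav, 0.0534 for Itga5, 0.0628 for Itgb4 and 0.269 for Itga4. Without p45-deficient replicate 2, it was 0.192 for Itgav, 0.0771 for Itgb4 and 0.0773 for Itga4. All these kept their direction, and all 7 passed without either Tcf1-deficient library.

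The promoter sequences are shown because Tcf1 binds DNA. They let 3 changed genes be set beside Ccr4, which, like Ccr9, was called by DESeq2 and not by edgeR on all 6 libraries. RefSeq promoters of build GRCm38.p6, from 250 bases before to 50 after an annotated start, were matched by symbol for 26 of the 38 genes, in 28 entries. The core of the TCF/LEF motif was searched as CTTTGA or CTTTGT, and the RUNX core as TGTGGT or TGTGGC, each on both strands, and matches of the 2 motifs do not overlap in the sequences shown. A TCF/LEF core was in 31.2% of all 32851 promoters of this length and in 12 of the 28 here, those of Ccr2, Ccr4, Ccr6, Cxcr3, Cxcr6, Itga1, Itga10, Itga3, Itgam, Itgb1 and Xcr1. A RUNX core was in 32.4% of all and in 11 of the 28. Shown 5′ to 3′ on the gene's strand, with matches in capitals, are Itgav (chr2:83724147-83724446, plus strand), Itga4 (chr2:79255176-79255475, plus strand), Itga5 (chr15:103366742-103367041, minus strand) and Ccr4 (chr9:114496495-114496794, minus strand).
Itgav: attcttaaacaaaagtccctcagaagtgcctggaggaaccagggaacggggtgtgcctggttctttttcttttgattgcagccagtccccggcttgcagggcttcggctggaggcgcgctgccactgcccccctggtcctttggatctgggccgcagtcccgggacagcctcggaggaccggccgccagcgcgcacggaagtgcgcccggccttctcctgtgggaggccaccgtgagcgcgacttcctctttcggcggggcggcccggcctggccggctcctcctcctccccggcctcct
Itga4: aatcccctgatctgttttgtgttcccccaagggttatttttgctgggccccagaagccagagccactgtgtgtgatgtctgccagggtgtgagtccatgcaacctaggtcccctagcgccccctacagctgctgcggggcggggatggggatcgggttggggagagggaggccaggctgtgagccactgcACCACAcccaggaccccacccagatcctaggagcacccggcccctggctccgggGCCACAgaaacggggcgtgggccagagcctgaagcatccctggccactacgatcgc
Itga5: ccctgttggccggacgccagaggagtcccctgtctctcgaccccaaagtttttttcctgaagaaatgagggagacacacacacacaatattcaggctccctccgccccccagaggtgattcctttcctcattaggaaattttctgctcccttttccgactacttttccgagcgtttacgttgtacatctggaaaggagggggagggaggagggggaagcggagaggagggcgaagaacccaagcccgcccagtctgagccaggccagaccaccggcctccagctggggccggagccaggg
Ccr4: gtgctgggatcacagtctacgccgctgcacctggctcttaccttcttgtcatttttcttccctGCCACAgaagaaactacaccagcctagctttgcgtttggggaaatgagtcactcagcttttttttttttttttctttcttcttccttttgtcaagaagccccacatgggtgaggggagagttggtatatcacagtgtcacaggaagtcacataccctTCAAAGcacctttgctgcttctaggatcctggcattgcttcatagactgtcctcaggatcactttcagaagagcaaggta
Of the 3 integrin promoters, whose genes passed by edgeR, none holds a TCF/LEF core, and Itga4 holds RUNX cores. The bases just after the start of the Itga5 entry were not found in a GENCODE M21 transcript of the gene. Its start is thus less sure than those of the other entries shown. Ccr4, whose call depended on the tool, holds a RUNX core and, closer to its start, a TCF/LEF core. The entry for Ccr9, whose call depended on the tool and the setting, holds neither core and is not shown. The entry for Itga9 lies at a start inside the gene and is not shown; it holds neither core. Itga6, Itgae and Itgb4 were not matched. A match describes letters and not a bound site, and the absence of a match says only that these letters are not in this window.

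In the second comparison, of Tcf1-deficient against control cells, no chemokine receptor or integrin gene passed by edgeR. Among the largest fitted differences were those of the chemokine receptors Ccr6 and Cxcr3, both with high values in Tcf1-deficient replicate 1 and not in replicate 2. Itgae and Itgav were higher in both Tcf1-deficient libraries than in both controls. By edgeR 0 of 36 genes were called, against 0% of all 12939 genes tested. At an unadjusted p under 0.05 there were 7 of 36, among them Itgae, Itgav, Cxcr6, Ccr2 and Cxcr3, against 7.91% of all genes. DESeq2 called 3 of the 36, all higher, Itgae and Itgav among them, against 1.21% of the 11935 genes to which it gave an adjusted p. The median log2 fold change was 0.73 over the 36 and 1.81 over the 15 chemokine receptors, against 0.01 over all genes. Without Tcf1-deficient replicate 1 these medians were −0.02 over the 36, −0.10 over the 15 and −0.01 over all genes. Both Tcf1-deficient libraries lay above both controls in 9 of 36 genes, against 16.4% of all genes, and below them in 3, against 18.0%.

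Cxcr3, the receptor of the interferon-induced CXCL9 and CXCL10, had 28.6 and 2.54 CPM in the Tcf1-deficient and 0.919 and 2.67 CPM in the control libraries. The second Tcf1-deficient library fell between the controls (log2 fold change 3.09, SE 1.18, adjusted p = 0.626). Cxcr6 had 22.2 and 2.87 CPM in the Tcf1-deficient and 2.03 and 2.48 CPM in the control libraries, and both were above both controls, the second by little.

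The CCL2 receptor Ccr2 followed the same pattern, with 27.2 and 5.49 CPM in the Tcf1-deficient and 3.72 and 5.53 CPM in the control libraries. So did Ccr7, the receptor of mature thymocytes and naive T cells, given above, whose Tcf1-deficient libraries differed by 9.95-fold. Cxcr5, which brings cells to B cell follicles, had 7.03 and 0.125 CPM in the Tcf1-deficient and 0.725 and 0.534 CPM in the control libraries. Ccr6, the receptor of CCL20, had 7.47 and 0.541 CPM in the Tcf1-deficient and 0.725 and 0.153 CPM in the control libraries. In each the high value is that of replicate 1 alone. Cx3cr1 (4.66 and 0.791 CPM in Tcf1-deficient, 0.532 and 0.496 CPM in control cells) and the collagen receptor chain Itga1 (3.08 and 0.166 CPM in Tcf1-deficient, 0.387 and 0.496 CPM in control cells) were alike in this. Cxcr4 was lower in replicate 1, with 158 and 313 CPM in the Tcf1-deficient and 240 and 375 CPM in the control libraries. Cxcr2, a neutrophil receptor in other tissues, had between 6.49 and 8.78 CPM in all 6 libraries.

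Leaving out a Tcf1-deficient library changes what is called. Without replicate 2, 12 genes passed, all higher in Tcf1-deficient cells, among them Ccr2, Ccr7, Cxcr3, Cxcr5, Cxcr6, Itgae, Itgal, Itgav and Itgb7, with 5.04% of all genes called higher and 1.51% lower. In that fit the log2 fold change was 3.29 for Cxcr6 (SE 0.29, adjusted p = 0.00159) and 3.32 for Itgb7 (SE 0.39, adjusted p = 0.0191). Without replicate 1, 0 of 36 passed, with 0.0927% of all genes called. The log2 fold change was then 0.35 for Cxcr6 (adjusted p = 0.828), 0.24 for Ccr2 (0.875) and 0.48 for Cxcr3 (0.838). In these fits the lone Tcf1-deficient library is assumed to vary like the other genotypes.

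Itgae and Itgav kept a positive log2 fold change with either Tcf1-deficient library alone. With all libraries it was 1.85 for Itgae (SE 0.33, adjusted p = 0.286) and 0.99 for Itgav (SE 0.24, adjusted p = 0.421). Without replicate 1 it was 1.40 for Itgae (adjusted p = 0.273) and 0.62 for Itgav (adjusted p = 0.454), and without replicate 2 it was 2.20 for Itgae (adjusted p = 0.00988) and 1.28 for Itgav (adjusted p = 0.00664). On the same controls, the other integrin genes called in p45-deficient cells did not pass either. The log2 fold change was −0.12 for Itga9 (SE 0.18, adjusted p = 0.888), 0.22 for Itga6 (SE 0.12, adjusted p = 0.682), −0.31 for Itga5 (SE 0.19, adjusted p = 0.705), −0.60 for Itgb4 (SE 0.26, adjusted p = 0.626) and 0.06 for Itga4 (SE 0.19, adjusted p = 0.954).

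**Figure D4:**
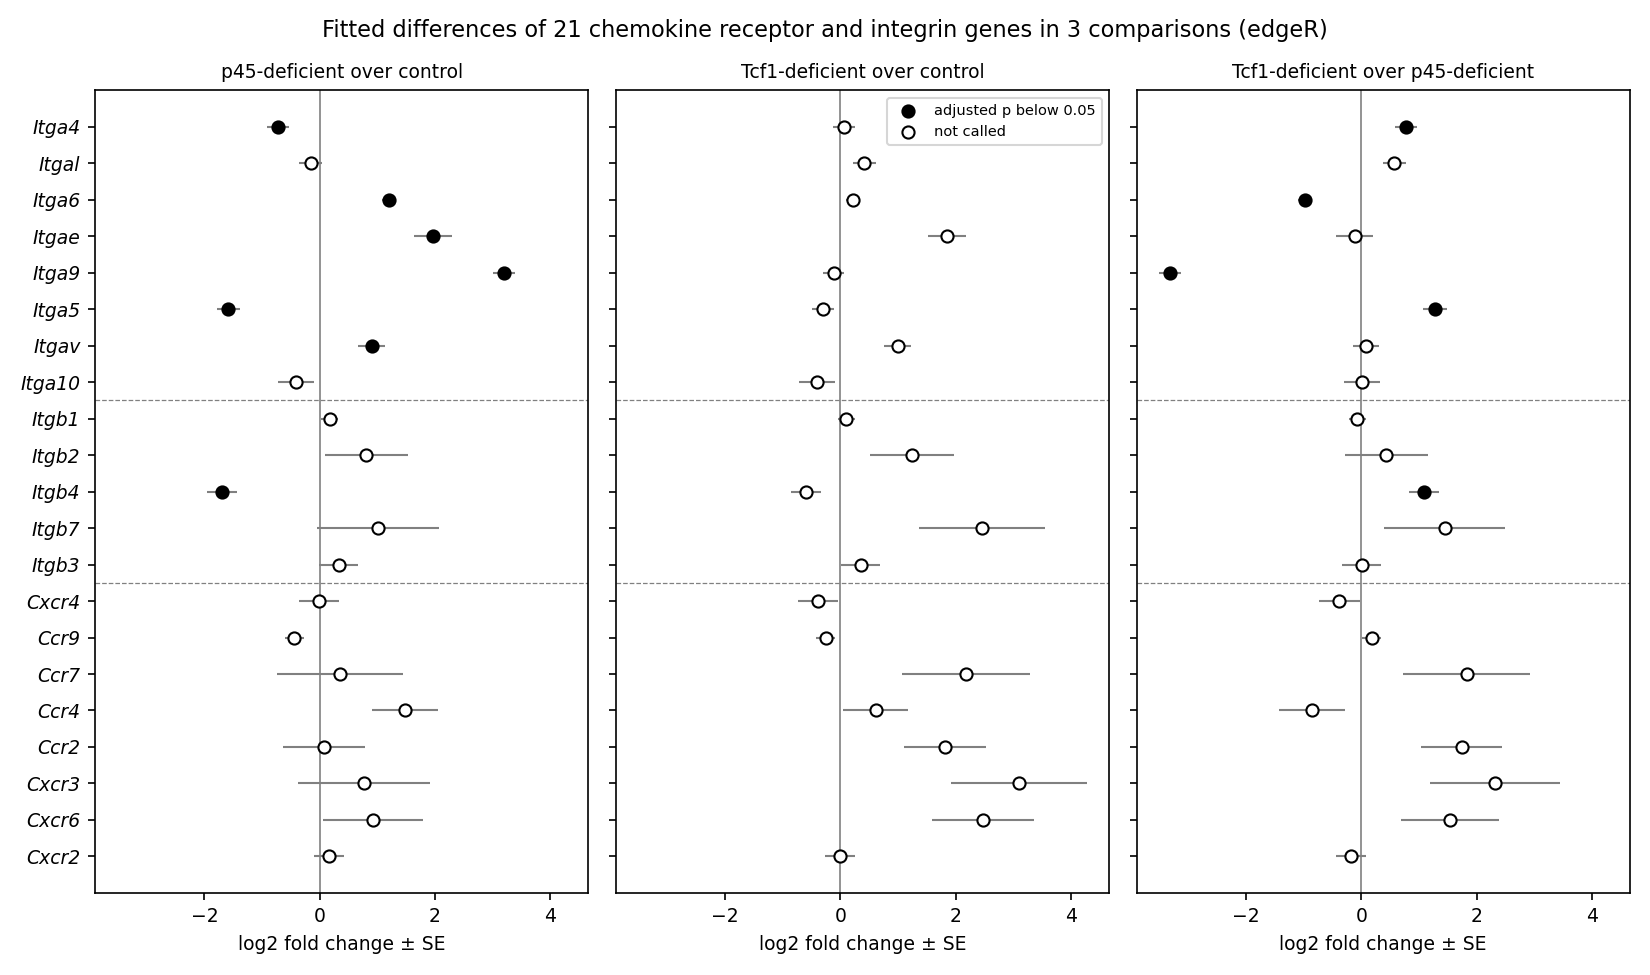
Fitted log2 fold change (horizontal axis, with its SE as bars) of 21 chemokine receptor and integrin genes in the 3 comparisons; filled points have an adjusted p below 0.05. Itga9 stands at 3.20 in p45-deficient over control and at −3.32 in Tcf1-deficient over p45-deficient cells, and the middle panel has no filled point.

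The third comparison sets the 2 mutants against each other, Tcf1-deficient over p45-deficient, and so tests whether the integrin changes differ between them. For 5 of the 7 they did. Itga9 and Itga6 were lower in Tcf1-deficient cells, with log2 fold changes of −3.32 (SE 0.19, adjusted p = 0.00131) and −0.98 (SE 0.12, adjusted p = 0.00757). Itga5 (1.28, SE 0.20, adjusted p = 0.0136), Itga4 (0.78, SE 0.19, adjusted p = 0.0443) and Itgb4 (1.09, SE 0.26, adjusted p = 0.0449) were higher. Neither Itgae (log2 fold change −0.11, SE 0.32, adjusted p = 0.852) nor Itgav (0.08, SE 0.23, adjusted p = 0.841) passed, which does not show that they were alike. Of the 36 genes, 5 were called (13.9%), against 10.4% of all genes; 3 were higher, against 5.05%, and 2 lower, against 5.36%. The p45-deficient libraries are shared with the first comparison, so these calls are not separate support for it.

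The same 5 genes passed without Tcf1-deficient replicate 1, with 10.5% of all genes called, and in that fit Itga5 had a log2 fold change of 1.57 (adjusted p = 0.00176) and Itgb4 of 1.40 (adjusted p = 0.0241). Without replicate 2, 19 of 36 passed, 16 higher and 3 lower, with 12.8% of all genes called higher and 13.3% lower. Those 19 hold 10 chemokine receptors, none of which passed with both libraries, among them Ccr2 (2.47, SE 0.31, adjusted p = 0.00222), Cxcr6 (2.37, SE 0.28, adjusted p = 0.00184) and, lower, Cxcr4 (−0.96, SE 0.26, adjusted p = 0.0456). Itgb4 did not pass there (adjusted p = 0.0715). Without p45-deficient replicate 1 the adjusted p was 0.0884 for Itga6, 0.128 for Itga5, 0.274 for Itga4 and 0.176 for Itgb4, and without p45-deficient replicate 2 it was 0.0732 for Itga5, 0.0972 for Itga4 and 0.237 for Itgb4. Without control replicate 1 or 2, Itga4 (0.0886 and 0.0868) and Itgb4 (0.0583 and 0.0571) missed the limit. Itga9 passed without any 1 library.

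The controls also differed in their immediate-early genes and, in both directions, in some of these receptors. The 25 immediate-early and heat-shock genes summed to 1179 and 1107 CPM in the p45-deficient, 4071 and 4856 CPM in the Tcf1-deficient and 1363 and 4959 CPM in the control libraries. Control replicate 2 was also the higher control in Ccr4, Ccr7, Cxcr3, Cxcr4, Itgb2, Itgb3 and Itgb7. Replicate 1 was the higher control in others, among them Itgb4, Ccr6 and Ccr10. In 3 chemokine receptors, or 8.33% of the 36 against 2.72% of all genes, control replicate 2 was at least 2-fold above replicate 1. In 2, Ccr6 and Ccr10, replicate 1 was that far above replicate 2 (5.56%, against 2.53% of all genes). The median log2 of control replicate 1 over replicate 2 was −0.06 over the 36 and −0.01 over all genes. Whether the immediate-early genes have a part in these values was not tested.

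Several receptors that mark other blood cells stayed low in every library, but not all did. Ccr2 and Cx3cr1 reached 27.2 and 4.66 CPM in Tcf1-deficient replicate 1, and Cxcr2 had between 6.49 and 8.78 CPM in all 6 libraries. The myeloid integrin chain Itgam had 3.75 and 1.05 CPM in the p45-deficient, 1.93 and 0.749 CPM in the Tcf1-deficient and 1.21 and 1.22 CPM in the control libraries. Itgax and Itgad, chains of myeloid and dendritic cells, ranged from 0.499 to 2.42 CPM and from 0.910 to 2.55 CPM over the 6 libraries. The dendritic cell receptor Xcr1 ranged from 0.184 to 0.791 CPM, and Itga2b, of the platelet lineage, from 0.478 to 1.76 CPM. The 22 myeloid markers in the files summed to 23.4 and 34.9 CPM in the p45-deficient, 64.9 and 41.4 CPM in the Tcf1-deficient and 55.1 and 45.3 CPM in the control libraries, and the 12 erythroid and megakaryocyte markers to between 6.98 and 12 CPM, with Hba-a1, Hbb-b1, Hbb-bs and Ppbp among those at 0 throughout. The dendritic cell and antigen presentation markers summed to 639 and 632 CPM in the p45-deficient, 702 and 611 CPM in the Tcf1-deficient and 875 and 833 CPM in the control libraries. Most of that sum was Ly6d, Ccr9, Bst2 and Tcf4, while Flt3, Zbtb46, Xcr1 and Cd209a of the same list stayed at or below 1.31 CPM. Of 16 tested, 2 were called lower in p45-deficient against control cells, Cd209a and H2-DMb1 (12.5%, against 7.55% of all genes). The median log2 fold change there was −1.38, against 0.05 over all genes. Zbtb46, Xcr1, Irf8, Cd74 and Ciita were higher in Tcf1-deficient replicate 1 than in the 5 others, and Ly6d was lower. Among the scarce genes Ccr8 had between 0.832 and 3.82 CPM and Itga3 between 0.144 and 1.54 CPM, and both were highest in Tcf1-deficient replicate 1. Ccr10 had 0.0368 and 0.0957 CPM in the p45-deficient libraries, below the level of 3 counts, and 0.725 and 0.153 CPM in the controls. Itga7 and Itga11 had too few counts to be tested, with at most 0.923 CPM and 0.387 CPM in any library.

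Of 33 tested genes of integrin activation and the adhesion complex, 4 rose and 3 fell in p45-deficient against control cells. These 7 are 21.2% of the list, near the 16.0% of all genes, and so no result about the list. The focal adhesion kinase gene Ptk2 rose to 12.7 and 8.66 CPM in p45-deficient cells, against 2.22 and 1.87 CPM in control cells (log2 fold change 2.38, SE 0.34, adjusted p = 0.00722). Rap1a, a small GTPase that drives integrin activation (0.79, adjusted p = 0.0167), the calcium- and integrin-binding protein gene Cib1 (0.73, adjusted p = 0.0140) and the adaptor gene Fyb, known as ADAP (0.50, adjusted p = 0.0458), rose too. The adhesion plaque genes Zyx (zyxin, −1.23, adjusted p = 0.00335) and Pxn (paxillin, −0.75, adjusted p = 0.00939) and the kindlin gene Fermt3 (−0.55, adjusted p = 0.0313) fell. The median log2 fold change of the 33 was 0.03. In Tcf1-deficient over p45-deficient cells, Zyx (0.85, adjusted p = 0.0133), Pxn (0.72, adjusted p = 0.0158), Fermt3 (0.58, adjusted p = 0.0373) and the talin gene Tln1 (0.64, adjusted p = 0.0469) were higher, and 0 were lower. These 4 are 12.1% of the list, near the 10.4% of all genes called in that comparison, and so no result about the list. Without Tcf1-deficient replicate 1, Zyx, Pxn and Fermt3 passed and Tln1 did not (log2 fold change 0.47, adjusted p = 0.0515). Tln1 had 480 and 520 CPM in the p45-deficient, 894 and 665 CPM in the Tcf1-deficient and 767 and 677 CPM in the control libraries.

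Of 36 tested genes that carry chemokine receptor signals, 4 rose in p45-deficient against control cells: Rgs10, a brake on G proteins (log2 fold change 1.33, adjusted p = 0.0272), the small GTPase genes Rhoa (0.55, adjusted p = 0.0294) and Cdc42 (0.63, adjusted p = 0.0341), and the G protein gamma chain gene Gng5 (0.62, adjusted p = 0.0416). Prex1, an exchange factor for Rac, fell (−0.79, adjusted p = 0.0349). The 5 called are 13.9% of the list, against 16.0% of all genes. The median was 0.10. In Tcf1-deficient over p45-deficient cells Prex1 (0.84, adjusted p = 0.0400) and Gng2 (2.22, adjusted p = 0.0420) were higher and Gng5 lower (−0.66, adjusted p = 0.0449). These 3 are 8.33% of the list, against 10.4% of all genes. Without Tcf1-deficient replicate 1, Prex1 passed, and Gng2 (1.59, adjusted p = 0.0666) and Gng5 (−0.41, adjusted p = 0.0861) did not.

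Among 12 tested integrin ligands the most abundant was Cdh1, the E-cadherin gene whose product is bound by Itgae with Itgb7. It had 158 and 83.8 CPM in the p45-deficient, 82.9 and 142 CPM in the Tcf1-deficient and 71.0 and 79.9 CPM in the control libraries, with both p45-deficient values above both controls, and did not pass (adjusted p = 0.244). Icam2, a ligand of LFA-1, lay between 29.9 and 40.2 CPM in all 6 libraries. Of the 12, 3 were called (25.0%, against 16.0% of all genes). The laminin chain genes Lamb1 (adjusted p = 0.0238) and Lamc1 (log2 fold change 0.86, adjusted p = 0.0344) rose in p45-deficient against control cells, and Icam1, another ligand of LFA-1, fell (−1.20, adjusted p = 0.0422). Lamb1 was scarce, with 1.76 and 0.814 CPM in p45-deficient and 0.0967 and 0.0763 CPM in control cells, the control values being under the level of 3 counts, so no fold is given. Lamc1 had 50.7 and 42.8 CPM in the p45-deficient, 17.7 and 11.9 CPM in the Tcf1-deficient and 26.8 and 24.7 CPM in the control libraries. In Tcf1-deficient over p45-deficient cells Icam1 was higher (1.48, adjusted p = 0.0324) and Lamc1 lower (−1.66, adjusted p = 0.00855). These 2 are 16.7% of the 12, against 10.4% of all genes. Both also passed without Tcf1-deficient replicate 1, with log2 fold changes of 0.95 for Icam1 and −1.93 for Lamc1. The 36 chemokine ligand genes summed to 18.5 and 20 CPM in the p45-deficient, 109 and 21.2 CPM in the Tcf1-deficient and 15.2 and 17.0 CPM in the control libraries. Ccl5 made up most of the high value, with 69.9 and 6.20 CPM in the Tcf1-deficient and 2.37 and 5.11 CPM in the control libraries. Of 12 tested ligands, 0 passed in p45-deficient against control cells, against 16.0% of all genes. In Tcf1-deficient over p45-deficient cells 1 passed (8.33%, against 10.4% of all genes), and this was Ccl4, which was higher (3.87, adjusted p = 0.0325). It did not pass there without Tcf1-deficient replicate 1 (3.52, adjusted p = 0.0552).

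Of 23 tested genes for other migration and adhesion receptors, the tetraspanin gene Cd82 rose in p45-deficient against control cells (log2 fold change 1.40, adjusted p = 0.00517) and the ephrin receptor gene Ephb2 fell (−0.86, adjusted p = 0.0369). These 2 are 8.7% of the list, against 16.0% of all genes. Cd82 had 407 and 307 CPM in the p45-deficient, 255 and 272 CPM in the Tcf1-deficient and 120 and 152 CPM in the control libraries, with all 4 mutant libraries above both controls. Cd96, a receptor for nectin-family molecules, was higher in Tcf1-deficient over p45-deficient cells (0.83, adjusted p = 0.0326), also without Tcf1-deficient replicate 1 (0.85, adjusted p = 0.038). That 1 call with all libraries is 4.35% of the 23, against 10.4% of all genes. The 1 atypical receptor that could be tested, Ccrl2, had 2.35 and 2.11 CPM in the p45-deficient, 7.21 and 6.83 CPM in the Tcf1-deficient and 0.193 and 6.45 CPM in the control libraries and passed in no comparison. None of these pathway genes passed in Tcf1-deficient against control cells, where edgeR called 0 genes in all.

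The genes next to the 7 changed integrin genes were looked at as well, in the order of RefSeq's annotation. Only protein-coding genes whose symbols are in the count files were considered. Of the 2 nearest such genes on each side, 20 could be tested. Of these, 4 passed in p45-deficient against control cells, a share near the 16.0% of all genes, and 0 in Tcf1-deficient against control cells. P2rx1, an ATP-gated channel gene 2 genes from Itgae, rose with it in p45-deficient cells, at 36.9 and 28.3 CPM in the p45-deficient, 2.86 and 3.29 CPM in the Tcf1-deficient and 8.41 and 5.95 CPM in the control libraries (log2 fold change of p45-deficient against control cells 2.19, adjusted p = 0.00406). It was lower in Tcf1-deficient than in p45-deficient cells (−3.41, adjusted p = 0.00257), and so without Tcf1-deficient replicate 1 (−3.26, adjusted p = 0.00176). Near Itga6, the homeobox gene Dlx1 had 7.06 and 4.64 CPM in the p45-deficient, 0.396 and 0.208 CPM in the Tcf1-deficient and 0.242 and 0 CPM in the control libraries (adjusted p = 0.0124), while Pdk1 on the other side fell by 0.47 on the log2 scale (adjusted p = 0.0282). Next to Itga5, Zfp385a fell together with it in p45-deficient cells, at 26.7 and 24.5 CPM, against 54.2 and 56.1 CPM in control cells (log2 fold change −1.11, adjusted p = 0.0325).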

How the data were processed

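RNA sequencing libraries of sorted DN3 thymocytes, 2 per genotype, were grouped by the labels. TopHat2, featureCounts 1.5.0-p3, DESeq2 3.4 and build mm9 are named, without roles, per the submitters' processing notes. Which annotation was used, and whether by strand, is not given in the sources used here; near-identical or overlapping genes may share reads. The deposited values are whole-number read counts per gene symbol, as the authors counted them, not normalised.

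The test was edgeR 4.0.16 (R 4.3.3): genes filtered with filterByExpr (12939 left), TMM scaling, 1 mean per genotype over all 6 libraries (3 residual degrees of freedom), and a two-sided quasi-likelihood F test with robust dispersions, adjusted by Benjamini-Hochberg in each comparison (threshold 0.05). DESeq2 1.42.0 was an alternative. SEs come from the F statistic. CPM uses TMM-scaled library sizes; CPM per kb divides by merged exons of GENCODE M21. Libraries of 1 genotype differed by more than counting noise (chi-square per degree of freedom 10.3 in p45-deficient, 79.0 in Tcf1-deficient, 41.3 in control cells), so no pair was taken for 1 library deposited in duplicate, which does not show that they are separate mice. An exact permutation test of 2 against 2 libraries cannot pass the threshold and was not used.

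The rule was to name Tcf7, members called or averaging at least 5 CPM, their partner chains and members that mark other cells. Of each list, up to 4 called genes per comparison were to be named. For integrin activation and chemokine receptor signalling all called genes are named, which goes beyond that rule. Some list genes that were not called are named too. Neighbours and scarce members were named after their values were seen. The members, 18 gene lists (341 genes in the files) and tests were chosen with earlier results of these data known. The fit was tested on simulated data. Some genes are counted but not described by name here.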

Additional observations from a re-analysis of the deposited data

How the results depend on the processing

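No called gene changed direction under any alternative, and Itga9 and Itga6 passed in p45-deficient against control cells under each of 13 alternatives (other scalings, no filter, DESeq2, 2 groups only, a replicate block, each library left out). Itga5 passed in 12, Itgae and Itgb4 in 10, Itga4 in 9 and Itgav in 7. With DESeq2, 3 genes were higher in Tcf1-deficient against control cells and 7 in Tcf1-deficient against p45-deficient cells; with 2 groups only, 1 was higher in the second of these. Leaving out 1 library at a time gave 2 to 5 higher and 0 to 4 lower in p45-deficient against control, 0 to 12 higher and 0 lower in Tcf1-deficient against control, and 0 to 16 higher and 1 to 3 lower in Tcf1-deficient against p45-deficient cells. The replicate numbers did not pair the libraries (correlations of deviations −0.0141, −0.0504 and −0.0286); with the replicate block, counts were 3 higher and 3 lower, then 0, then 2 higher and 2 lower, with 2 residual degrees of freedom, and Itgav (adjusted p = 0.0567) was lost in the first. With library totals in place of TMM, all genes had a median of −0.06 and not 0.05 in p45-deficient against control cells (log2), and Itgav had an adjusted p of 0.0551. The cause was not tested in any of these, except that leaving out a library leaves fewer samples. Depth limits what can be said of members under 1 CPM.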
